A study of Mus musculus with 18 samples.

Results

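The adult hippocampus of mice fed a cannabis extract in adolescence was compared with that of mice fed the vehicle, weeks after dosing had ended. The comparison took the 5 arrays titled adult cannabis and the 5 titled adult vehicle, 10 of the 18 arrays of the series, chosen by their titles and not by any measured value. In the cannabis group C57BL/6J pups received the extract at 20 mg/kg once a day for 14 days, P14 to P28 (P, postnatal day), in an emulsion of sweetened condensed milk with a little olive oil that they took from a blunt syringe. In the vehicle group pups took the same emulsion without the extract. Both groups then grew up undosed, passed a battery of behavioural tests and a challenge with phencyclidine (PCP, a blocker of NMDA-type glutamate receptors), and were killed 2 weeks after that challenge at an age the labels give as P56. All adult values therefore follow tests and phencyclidine in both groups. The other 8 arrays (4 cannabis, 4 vehicle) came from mice killed at P28, at the end of dosing. They share the estimate of the spread here, and they serve for the comparison of ages at the end. Whether the arrays of a group come from different mice is not stated in the labels. The p-values thus measure only how far these samples spread, and part of that spread may be technical.

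The hippocampus stores and retrieves memories through a chain of cell fields: granule neurons of the dentate gyrus project to CA3 pyramidal neurons, and these project to CA1. Its inhibitory interneurons, above all those that make the peptide cholecystokinin, carry much of the CB1 cannabinoid receptor, which tetrahydrocannabinol of the cannabis plant activates. CB1 sits on axon terminals, where endocannabinoids made by the postsynaptic cell bind it and reduce transmitter release. Adolescence is a time in which inhibitory circuits, myelin and the matrix around neurons are still maturing.

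Each value is the log2 intensity of 1 probe of a bead array, and each difference is the cannabis mean minus the vehicle mean on that log2 scale, with its moderated standard error. Of 45281 probes 18249 exceeded the background level of 6.98 in at least 4 arrays, and 15653 of these carry 1 gene symbol and stand for 10436 genes. The intensities were not background-subtracted, so differences are compressed, most for dim probes. Markers of the CA1 and dentate fields were present in both groups. The CA1 marker Fibcd1 lay between 11.93 and 12.20 on cannabis arrays and between 11.74 and 12.04 on vehicle arrays, and the dentate marker Prox1 between 8.64 and 9.43 and between 8.47 and 8.97. The hypothalamic transcription factor Nkx2-1 exceeded background on 0 of 5 cannabis and 0 of 5 vehicle arrays. Other markers listed for neighbouring regions lay above it. Hdc of the hypothalamus had means of 7.67 with cannabis and 8.01 with vehicle, and Fezf2 of the neocortex 10.53 and 10.68. The part of neighbouring tissue in the samples was not tested. In a tissue sample, fewer cells of a type and less RNA per cell cannot be told apart.

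Within both adult groups the arrays numbered 4 and 5 differed as a set from those numbered 1 to 3. Over the 10 adult arrays 1228 probes differed between these sets by limma at an adjusted p of 0.05, and 44.6% of the variance left after removing the group means lay on 1 principal component. On that component cannabis array 1 (-4.78) lay between arrays 4 and 5 (-16.27 to -10.57) and the others (3.72 to 24.8). The split was chosen with earlier results of these data known, so the count of 1228 only describes it. No label calls the sets a batch. Each holds as many cannabis as vehicle arrays (3 and 3, 2 and 2), so the difference between the groups can be read within each set, and it is given for both where it bears on a result.

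No probe separated the groups at the threshold. By limma, with Benjamini-Hochberg adjustment over all 18249 probes, 0 passed at an adjusted p of 0.05 (0.0%), and the lowest adjusted p was 0.88. At an unadjusted p under 0.05 there were 647 probes (3.55%), where a flat distribution of p would give 912. The count was 475 to 1042 when 1 adult array was left out, highest without cannabis array 3, and 979 with arrays 4 and 5 as a block, so it lay on either side of 912. Of these 270 (1.48%) were higher and 377 (2.07%) lower with cannabis. The 5 cannabis arrays lay all above or all below the 5 vehicle arrays in 66 probes (0.362%). Counted by gene, on the brightest probe of each, 360 of 10436 had an unadjusted p under 0.05 (3.45%), 147 of them higher (1.41%) and 213 lower (2.04%), and 5144 genes lay above vehicle at all (49.3%).

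Differences between the group means were small. The median absolute difference over genes was 0.05, the 95th percentile was 0.18, and the median standard error of a probe was 0.08. Counted on the brightest probe of each gene, 11 differed by more than 0.5, and 10 of these were lower with cannabis. The number of arrays limits the precision: for most genes a difference of this size is not larger than the spread between arrays.

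**Figure D1:**
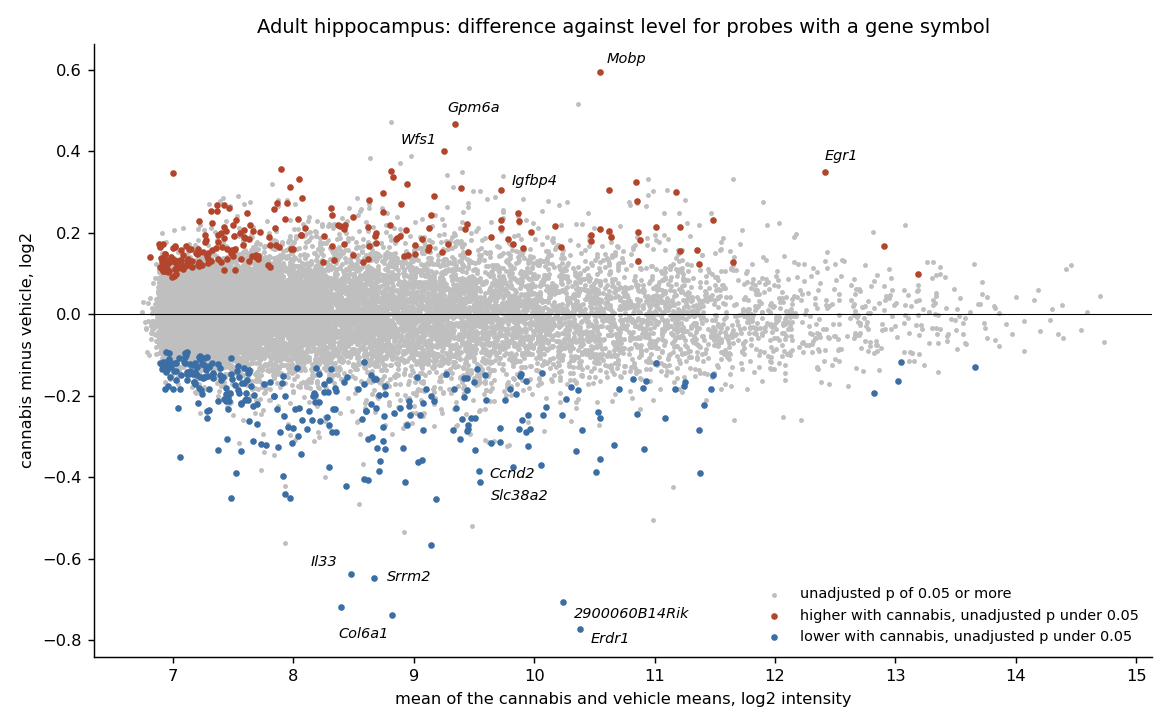
Difference between the adult groups (cannabis minus vehicle, log2, y axis) against the mean level (log2 intensity, x axis) for the 15653 probes with a gene symbol, 1 point per probe. Most points lie within 0.18 of 0, and of the genes described Mobp (0.59) is the highest and Erdr1 (-0.77) the lowest.

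The differences within the sets of arrays were weakly correlated. Whether this exceeds what arrays without a cannabis effect would give was not tested. Over genes, the difference within arrays 1 to 3 and that within arrays 4 and 5 correlated at 0.181, a description across genes that share the same arrays. Of all probes 55.4% had the same direction in both sets. Of the 440 probes at an unadjusted p under 0.05 in arrays 1 to 3, 291 had the same direction in arrays 4 and 5 (66.1%). Of the 1054 probes in arrays 4 and 5, 707 had the same direction in arrays 1 to 3 (67.1%). Both sets called 40 probes in the same direction.

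**Figure D2:**
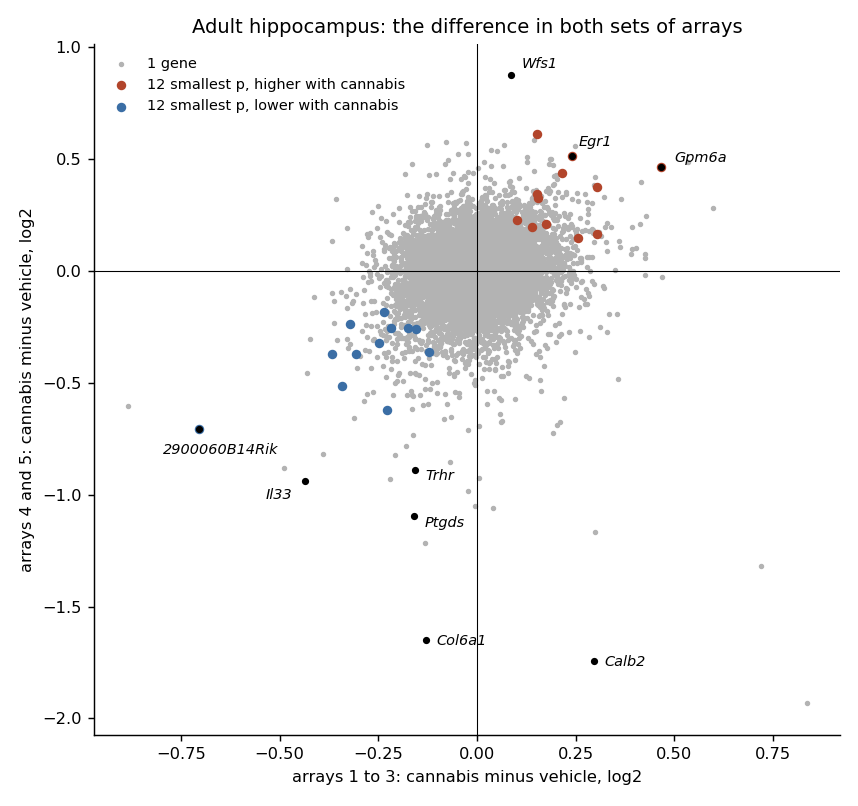
Difference between the adult groups within arrays 4 and 5 (y axis, log2) against that within arrays 1 to 3 (x axis, log2), 1 grey point per gene by its brightest probe. The 24 genes with the smallest p are coloured by the probe that gave that p, and 11 of them have a brighter probe. Their coloured points lie on the same side of 0 on both axes, which choosing by p over the same arrays favours. Wfs1 and Col6a1 lie far from 0 on the y axis alone, and Calb2 lies on opposite sides of 0 (0.30 and -1.74).

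Egr1 had the smallest p of all named genes. It encodes a zinc-finger transcription factor that neurons induce within minutes of synaptic activity and that is needed for lasting memory in mice. Egr1 was at 12.52, 12.56, 12.37, 12.80 and 12.72 on cannabis arrays, against 12.27, 12.17, 12.28, 12.24 and 12.26 on vehicle arrays. Every cannabis array lay above every vehicle array, and the vehicle arrays were the tighter group. The difference was 0.35 ± 0.07 (SE, 95% interval 0.20 to 0.50), a ratio of 1.27, with an adjusted p of 0.88 by limma. It was 0.24 within arrays 1 to 3 and 0.51 within arrays 4 and 5. Of the 17 immediate early transcription factors measured, Egr1 included, 8 lay above and 9 below vehicle, with a median difference of -0.002. Egr2 differed by 0.20 ± 0.12 and Klf4 by 0.12 ± 0.09, while Csrnp1 differed by -0.26 ± 0.09.

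Igfbp4, a secreted protein that binds insulin-like growth factors, was at 9.78, 9.91, 9.77, 10.08 and 9.84 on cannabis arrays, against 9.51, 9.60, 9.71, 9.43 and 9.61 on vehicle arrays. The groups did not overlap, and the difference was 0.31 ± 0.07. Its other probe differed by 0.21. Among the other genes of the insulin-like growth factor system, the receptor Igf2r differed by -0.15 ± 0.06, the growth factor Igf2 by 0.35 ± 0.22 and the binding protein Igfbp7 by 0.26 ± 0.16. Of the 12 measured 5 lay above vehicle, with a median of -0.01. Igfbp4 and Igf2r were those of the 12 with an unadjusted p under 0.05, beside 3.45% of all genes.

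Gpm6a encodes a neuronal membrane glycoprotein that promotes the growth of filopodia and neurites. It was at 9.27, 9.61, 9.90, 9.64 and 9.46 on cannabis arrays, against 8.88, 9.24, 9.25, 9.24 and 8.93 on vehicle arrays. Here too every cannabis array was higher, by 0.47 ± 0.12 on average, with 0.47 within arrays 1 to 3 and 0.46 within arrays 4 and 5. A second, brighter probe of the gene differed by 0.27 ± 0.22.

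Choosing genes by p over the same arrays favours groups that do not overlap. Of the 12 genes with the smallest p that were higher with cannabis, 8 had groups that did not overlap, beside 0.362% of all probes. Beside Egr1, Igfbp4 and Gpm6a these were Wdr61, a subunit of the Paf1 transcription complex (0.23 ± 0.06), Eif3c, a subunit of translation initiation factor eIF3 (0.33 ± 0.09), and Unc80, a subunit of the sodium leak channel complex (0.15 ± 0.04). Scn3b, the beta-3 subunit of voltage-gated sodium channels, was at 7.42, 7.43, 7.51, 7.45 and 7.39 on cannabis arrays, against 7.32, 7.34, 7.23, 7.17 and 7.01 on vehicle arrays. Of its 3 other probes the brightest differed by 0.28 ± 0.11, and 1 lay below vehicle. The last of the 8 was Cacfd1 (0.16 ± 0.05), whose vehicle level exceeded background on 1 of 5 arrays and whose 4 other probes all lay slightly below vehicle.

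The groups overlapped for the remaining 4 of those 12 genes. They were Dgcr8, the partner of Drosha in microRNA processing (0.25 ± 0.07), Rasgrp1, a Ras activator that responds to calcium and diacylglycerol (0.34 ± 0.09), Hapln1, a link protein of the matrix around neurons (0.19 ± 0.06), and Srp54a, of the signal recognition particle (0.21 ± 0.06). Rasgrp1 differed by 0.15 within arrays 1 to 3 and by 0.61 within arrays 4 and 5, and its 2 other probes by 0.03 and 0.05.

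Among genes that were lower with cannabis, 2900060B14Rik had the smallest p. No function is given to this transcript in the annotation used. It was at 10.25, 10.05, 9.92, 9.53 and 9.68 on cannabis arrays, against 10.74, 10.90, 10.69, 10.30 and 10.33 on vehicle arrays. All cannabis arrays were below all vehicle arrays, and within both groups arrays 4 and 5 were the lowest. The difference was -0.71 ± 0.15 (95% interval -1.03 to -0.38), a ratio of 0.613, with -0.70 within arrays 1 to 3 and -0.71 within arrays 4 and 5. The adjusted p was 1.00 by limma, and 0.0333 in a fit of the 10 adult arrays alone with the replicate number as a block, although these numbers were not shown to pair the samples.

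Ccnd2 encodes cyclin D2, which drives the division of precursors of new granule neurons in the adult mouse dentate gyrus. It was at 9.53, 9.37, 9.43, 9.10 and 9.32 on cannabis arrays, against 9.71, 9.57, 9.72, 9.84 and 9.82 on vehicle arrays. The groups did not overlap, the difference was -0.38 ± 0.11, and its 2 other probes differed by -0.41 and -0.17. Its relative Ccnd1 lay on the other side of 0, at 0.17 ± 0.09. Of 12 measured genes of cell proliferation 9 lay above vehicle, with a median of 0.02. One of these, Nusap1 of the mitotic spindle, was above background on 3 of 5 cannabis and 0 of 5 vehicle arrays, which gives only a bound of at least 1.02-fold.

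Slc38a2 encodes a sodium-coupled carrier of neutral amino acids. It was at 9.70, 9.32, 9.29, 8.98 and 9.44 on cannabis arrays, against 9.80, 9.59, 9.96, 9.79 and 9.66 on vehicle arrays. One cannabis array reached into the vehicle range, and the difference was -0.41 ± 0.11. Of its 2 other probes the brighter differed by -0.19 ± 0.20, and the second lay at the background level.

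The lower genes were chosen by p in the same way, which favours separation. Of the 12 genes with the smallest p that were lower, 7 had groups that did not overlap, beside 0.362% of all probes. Beside 2900060B14Rik and Ccnd2 they were Smim20, precursor of the peptide phoenixin (-0.33 ± 0.08), Agap1, a regulator of Arf proteins in endosomal traffic (-0.21 ± 0.05), Phf20l1, a reader of methylated lysine (-0.23 ± 0.06), Ankrd10 (-0.21 ± 0.06) and Tnrc6a, which works with Argonaute in microRNA silencing (-0.20 ± 0.06). The brighter probe of Agap1 differed by -0.02 ± 0.11, the second probe of Smim20 by 0.03, 1 of 2 other probes of Phf20l1 and 1 of 5 of Ankrd10 lay above vehicle, and both other probes of Tnrc6a lay below. The remaining 5 genes were Slc38a2, Nnmt, which methylates nicotinamide (-0.22 ± 0.06), Luzp2 (-0.29 ± 0.08), the co-chaperone Dnajc7 (-0.37 ± 0.10) and Zmym6 (-0.28 ± 0.08). Of the 24 genes with the smallest p in either direction 11 had a brighter probe, and for 10 of these the brightest probe differed by less.

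**Figure D3:**
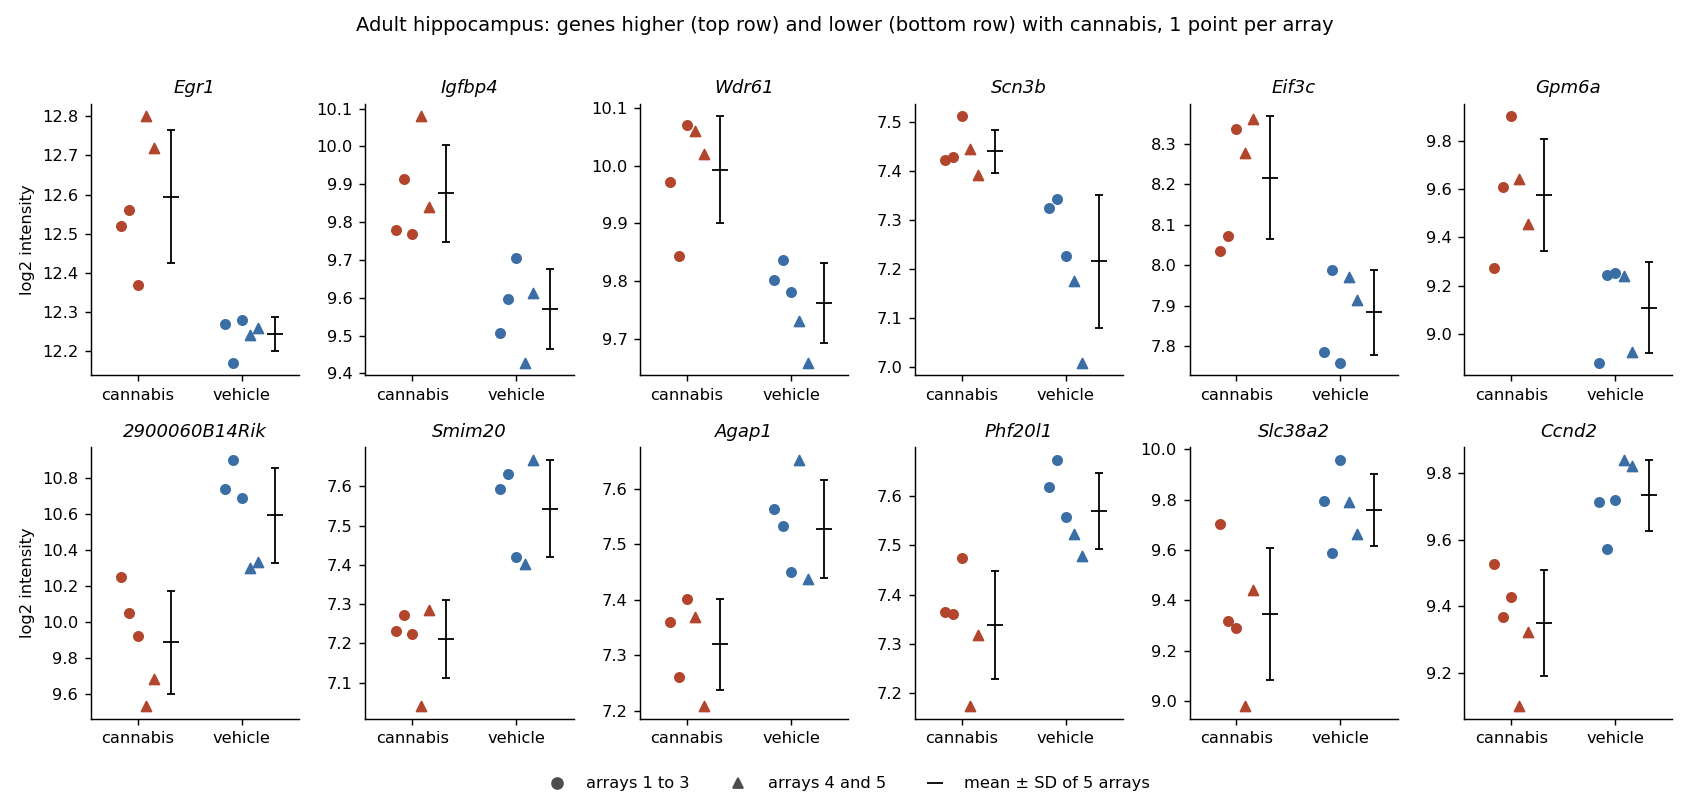
Log2 intensity (y axes, each with its own range) of 12 genes on the 5 cannabis arrays (left) and the 5 vehicle arrays (right) of adult hippocampus, 1 point per array, circles for arrays 1 to 3 and triangles for arrays 4 and 5, with the mean ± SD beside them. The groups do not overlap except for Slc38a2, where 1 cannabis array at 9.70 lies within the vehicle range of 9.59 to 9.96. The higher genes shown are those with the smallest p. The lower ones were picked by hand among the lower genes with the smallest p, and others of these, such as Nnmt and Luzp2, had groups that overlapped. All were chosen by p in these arrays, so the separation is in part a result of the choice.

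Some of the largest differences came with a wide spread between arrays. Mobp, a protein of compact myelin, was at 10.71, 11.56, 10.35, 11.40 and 10.21 on cannabis arrays, against 9.70, 10.30, 10.50, 10.41 and 10.34 on vehicle arrays. A pair of cannabis arrays stood far above the rest, and the difference was 0.59 ± 0.24. Its 4 other probes differed by 0.10 to 0.39, the brightest of them by 0.25 ± 0.19. Wdfy1, a protein of endosomes, differed by 0.36 ± 0.11 and Tubb2b, a tubulin of growing neurons, by 0.35 ± 0.13.

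Il33, an alarmin cytokine held in the nuclei of glia, was at 8.78, 7.62, 8.36, 7.41 and 8.61 on cannabis arrays, against 8.42, 8.89, 8.76, 8.92 and 8.96 on vehicle arrays. Cannabis arrays 2 and 4, 1 from each set, lay far below the others, array 3 lay just below the vehicle arrays, and arrays 1 and 5 lay within their range. The difference was -0.64 ± 0.20, and -0.45 without cannabis array 4. Srrm2, a scaffold protein of nuclear speckles, differed by -0.65 ± 0.23 and was lower in both sets (-0.49 and -0.88). Erdr1 differed by -0.77 ± 0.35, and its cannabis arrays ran between 8.67 and 11.38, against 10.56 to 11.06 on vehicle arrays. Col6a1, a chain of collagen VI, differed by -0.74 ± 0.32, of which -0.13 within arrays 1 to 3 and -1.65 within arrays 4 and 5.

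One probe without a gene name, ILMN_1215076, differed more than any named gene, and it was singled out after its values were seen. It was at 8.20, 8.88, 7.57, 7.56 and 8.34 on cannabis arrays, against 10.05, 10.61, 8.70, 9.58 and 9.89 on vehicle arrays. All but 1 vehicle array lay above all cannabis arrays. The difference was -1.66 ± 0.33, with -1.57 within arrays 1 to 3 and -1.78 within arrays 4 and 5.

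The genes of the endocannabinoid system itself differed little. CB1 is encoded by Cnr1, which was at 7.05, 7.12, 7.14, 6.98 and 7.04 on cannabis arrays, against 7.06, 7.15, 7.13, 7.24 and 7.07 on vehicle arrays. The groups overlapped, the level was just above background, and the difference was -0.06 ± 0.05 (95% interval -0.17 to 0.04). Faah, which degrades anandamide, differed by 0.11 ± 0.10, and Mgll, which degrades 2-arachidonoylglycerol, by 0.19 ± 0.16. Of the enzymes that make these lipids, Napepld differed by -0.06 ± 0.10 and Daglb by 0.07 ± 0.08. The CB2 receptor gene Cnr2 and the enzyme gene Dagla were below background. Abhd4, a lipase on a path to anandamide, was at 8.12, 8.09, 8.13, 8.27 and 8.17 on cannabis arrays, against 7.82, 7.83, 7.72, 8.05 and 8.21 on vehicle arrays. Only 1 vehicle array reached the cannabis range, and the difference was 0.23 ± 0.08. Abhd4 was the 1 member of 11 with an unadjusted p under 0.05, beside 3.45% of all genes. Over the 11 measured genes 8 lay above vehicle, with a median of 0.07, beside 49.3% and a median of -0.00111 over all genes. That median was 0.005 within arrays 1 to 3 and 0.11 within arrays 4 and 5.

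Receptors for glutamate and GABA lay near 0. Of 7 AMPA and NMDA receptor subunits 3 were above vehicle, with a median of -0.01: Gria1 differed by 0.12 ± 0.08, Gria2 by 0.11 ± 0.10 and Grin2b by -0.07 ± 0.09. Of 8 kainate and metabotropic receptors 4 were above, with a median of -0.009. Of 6 GABA-A subunits 2 were above, with a median of -0.03, and Gabrb1 was the furthest at -0.22 ± 0.12. None of these 21 genes had an unadjusted p under 0.05, beside 3.45% of all genes.

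Kctd12 differed more than these by its brighter probe. It encodes an auxiliary subunit of the GABA-B receptor that speeds its desensitization, and it was at 9.96, 9.88, 10.22, 9.81 and 10.08 on cannabis arrays, against 9.70, 9.61, 9.78, 9.78 and 9.85 on vehicle arrays. Only 1 cannabis array lay within the vehicle range. The difference was 0.25 ± 0.08, but its dimmer probe differed by 0.10 ± 0.23. The receptor subunit Gabbr1 differed by -0.07 ± 0.09.

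Genes of transmitter release lay on both sides of 0. Of 23 measured genes of vesicle fusion and release 17 were lower, with a median of -0.06, which was -0.03 without vehicle array 5. Syn2, a synapsin that tethers vesicles, had 5 cannabis arrays between 10.90 and 11.06 and 5 vehicle arrays between 11.06 and 11.29, without overlap before rounding (-0.15 ± 0.08), but its second probe lay above vehicle. Dnm1, the dynamin of vesicle recycling, differed by -0.16 ± 0.06 and Cplx2, a complexin, by -0.29 ± 0.16. One of the 23 had an unadjusted p under 0.05 (Dnm1), a share near the 3.45% of all genes. Of 17 transporters of transmitters and amino acids 10 were lower, with a median of -0.05. The glial glutamate transporter Slc1a2 was among the higher ones at 0.22 ± 0.10.

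Ion channels showed single genes and no shift. Of 35 potassium channel genes 18 were above vehicle, with a median of 0.009. Kcnq5, a subunit of the M-current, was at 7.96, 7.49, 7.55, 7.41 and 7.47 on cannabis arrays, against 7.73, 7.92, 7.96, 7.88 and 7.99 on vehicle arrays. Cannabis array 1 stood apart from the other 4, which lay below every vehicle array. The difference was -0.32 ± 0.10, and -0.42 without that array. Sodium channel genes had a median of 0.03 over 10 genes and calcium channel genes one of -0.003 over 9.

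Interneuron markers lay below vehicle in 13 of 18 genes, with a median of -0.09. Slc32a1, which loads GABA into vesicles, was at 10.87, 10.68, 10.39, 10.51 and 10.60 on cannabis arrays, against 10.84, 10.82, 10.75, 10.75 and 10.83 on vehicle arrays. The other cannabis arrays were below the vehicle arrays, but 1 was above them all, and the difference was -0.18 ± 0.07. Gad2, which makes GABA, differed by -0.16 ± 0.07 and Cort, the peptide cortistatin, by -0.37 ± 0.16. These 3 of 18 had an unadjusted p under 0.05 in the lower direction, beside 2.04% of all genes. The median was 0.01 within arrays 1 to 3, where 9 of 18 lay above vehicle, and -0.19 within arrays 4 and 5, where 0 of 18 did. Of 17 neuropeptide and granin genes 13 were lower, with a median of -0.10 that was -0.04 and -0.15 within the sets, and -0.02 without cannabis array 4. This list shares Npy, Sst, Cort, Vip and Tac1 with the interneuron markers, so the lists are not independent. Adcyap1, the peptide PACAP, differed by -0.24 ± 0.10, whereas the granin Scg3 differed by 0.20 ± 0.09.

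Regional markers differed between the sets on cannabis arrays. The mean level of 9 markers of the ventral hippocampus, the pole linked to emotion, was 8.48, 8.52, 8.52, 7.79 and 7.68 on cannabis arrays, against 8.58, 8.09, 8.19, 8.40 and 8.38 on vehicle arrays. Cannabis arrays 4 and 5 lay below the other 8. The median difference of these markers was 0.08 within arrays 1 to 3 and -0.38 within arrays 4 and 5, and -0.10 over all arrays, with 8 of 9 lower. Without cannabis array 5 it was 0.04.

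Single genes showed the same division. Calb2, the calcium-binding protein calretinin, was at 9.34, 10.28, 9.87, 8.78 and 7.84 on cannabis arrays, against 10.10, 8.90, 9.60, 10.35 and 9.76 on vehicle arrays. Cannabis arrays 4 and 5 were the lowest of the 10, and the difference of -0.52 ± 0.35 was 0.30 within arrays 1 to 3 and -1.74 within arrays 4 and 5. Trhr, a peptide receptor of the ventral list, differed by -0.45 ± 0.16, with -0.16 and -0.89 within the sets. By its brighter probe Dcn, a matrix proteoglycan listed for the ventral part and for CA1, was at 9.82, 10.23, 10.61, 7.75 and 7.70 on cannabis arrays, against 10.70, 8.60, 8.84, 9.72 and 9.60 on vehicle arrays. The difference was -0.27 ± 0.53 over all arrays and -1.93 within arrays 4 and 5. The part of these markers in the interneuron and collagen values was not tested.

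CA1 markers were higher with cannabis in 6 of 8 genes, with a median of 0.20, the highest of the lists with 6 or more measured genes. This median was 0.09 within arrays 1 to 3 and 0.35 within arrays 4 and 5. Wfs1, an endoplasmic reticulum protein of CA1 neurons, was at 8.76, 9.69, 9.52, 9.79 and 9.48 on cannabis arrays, against 9.26, 9.57, 8.88, 8.77 and 8.76 on vehicle arrays. The groups overlapped, and the difference of 0.40 ± 0.18 was 0.09 within arrays 1 to 3 and 0.87 within arrays 4 and 5. Man1a, a mannosidase, differed by 0.18 ± 0.07, Lefty1, a secreted inhibitor of nodal signalling, by 0.24 ± 0.13, and Fibcd1 by 0.22 ± 0.12. The mean level of the list overlapped between groups, from 9.57 to 9.95 on cannabis arrays and from 9.39 to 9.97 on vehicle arrays. Markers of CA3 and CA2 had a median of -0.03, with 7 of 11 lower.

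**Figure D4:**
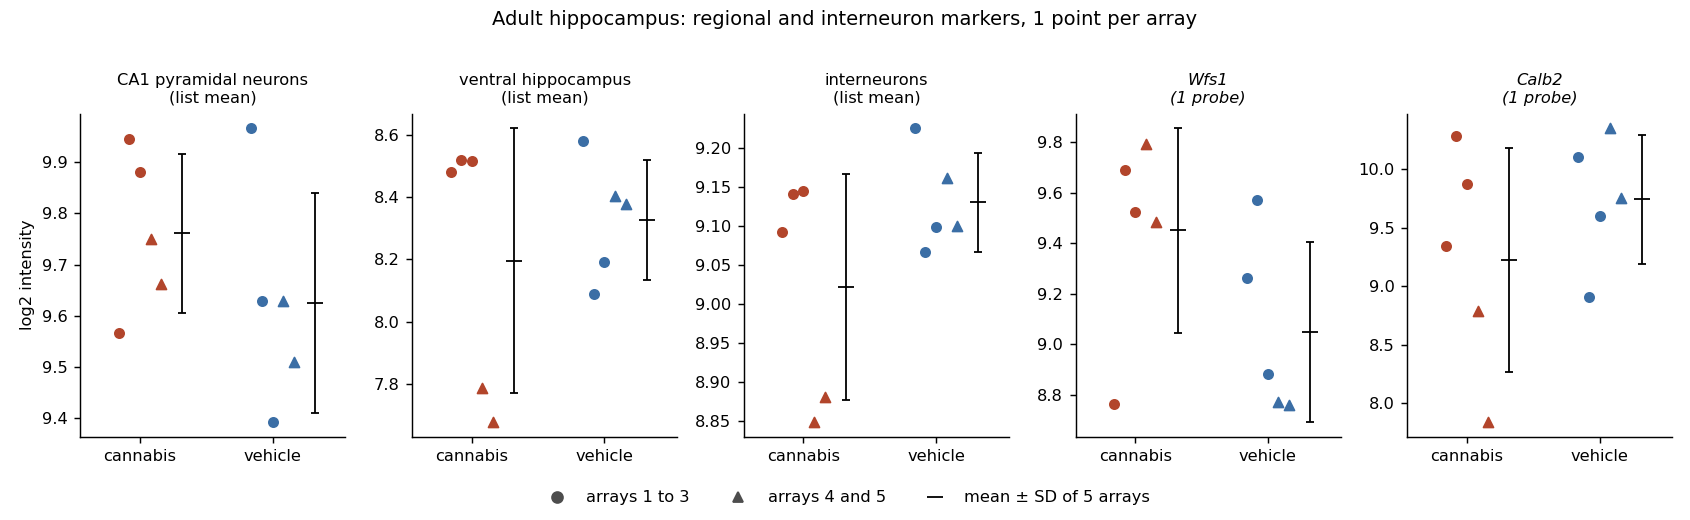
Mean log2 intensity of the marker lists of CA1 pyramidal neurons, the ventral hippocampus and interneurons, and log2 intensity of Wfs1 and Calb2 (y axes, each with its own range), on adult cannabis arrays (left) and vehicle arrays (right), circles for arrays 1 to 3, triangles for arrays 4 and 5, bars for the mean ± SD. Cannabis arrays 4 and 5 (7.79 and 7.68) are the lowest of the 10 for ventral markers and also the lowest for the interneuron list and Calb2. Calb2 is itself a member of the interneuron list.

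Dentate granule markers lay above vehicle in 7 of 8 genes, with a median of 0.11. Prox1, the transcription factor that fixes granule cell identity, was at 8.64, 9.31, 8.93, 9.43 and 8.83 on cannabis arrays, against 8.80, 8.97, 8.72, 8.82 and 8.47 on vehicle arrays. The groups overlapped and the difference was 0.27 ± 0.13. The transcription factor Rfx3 also differed by 0.27 ± 0.12. Without cannabis array 5 the median of the list was 0.03.

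Markers of immature neurons were higher in 10 of 14 genes, with a median of 0.12. Their mean level was 8.97, 9.40, 9.03, 9.32 and 8.86 on cannabis arrays, against 9.10, 8.94, 9.01, 9.08 and 9.04 on vehicle arrays. Cannabis arrays 2 and 4, 1 from each set, lay above all others, and the other 3 lay within or below the vehicle range. Igfbpl1, a binding protein of newborn neurons, was at 6.91, 7.61, 6.93, 7.61 and 6.83 on cannabis arrays, against 6.84, 6.93, 6.79, 6.78 and 6.81 on vehicle arrays. It exceeded background on 2 of 5 cannabis arrays and 0 of 5 vehicle arrays, so only a bound of at least 1.15-fold can be given here as well. The chromatin-linked factor Sox11 differed by 0.30 ± 0.17, Dpysl5, a guidance protein of growing axons, by 0.23 ± 0.13, and Marcksl1 by 0.47 ± 0.24 with a second probe on the other side of 0. Calb2, also on this list, was its lowest member, at -0.52 ± 0.35, and 4 of the 14 were lower. Without cannabis array 2 the median was 0.07.

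Myelin genes were higher in 14 of 19, with a median of 0.14 that was also 0.14 within arrays 1 to 3 and 0.17 within arrays 4 and 5. Cannabis arrays 2 and 4 again had the highest mean levels (10.15 and 10.17), and the other 3 lay within the vehicle range of 9.39 to 10.00. Mal, a proteolipid of myelin, was at 10.78, 10.78, 9.88, 11.20 and 10.44 on cannabis arrays, against 9.46, 9.99, 10.39, 10.32 and 10.35 on vehicle arrays. Here 4 of 5 cannabis arrays were above all vehicle arrays, and the difference was 0.52 ± 0.26. Tspan2 differed by 0.41 ± 0.21 and Mag by 0.28 ± 0.22. Of the 19 genes 5 were lower, the furthest of them Cryab at -0.27 ± 0.21. No gene of the 19, by its brightest probe, had an unadjusted p under 0.05, beside 3.45% of all genes. The median was 0.05 without cannabis array 2 and 0.26 without cannabis array 5.

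Markers of oligodendrocyte precursors were higher in 10 of 11 genes, with a median of 0.12 (0.10 and 0.14 within the sets). Their mean level was 8.65, 8.91, 8.65, 8.96 and 8.58 on cannabis arrays, against 8.58, 8.63, 8.66, 8.62 and 8.59 on vehicle arrays. Here too cannabis arrays 2 and 4 stood above all others, and the other 3 lay at or within the vehicle range. Olig1, Olig2 and Sox10 are on both this list and the myelin list, so the lists are not independent. Cspg4, the NG2 proteoglycan, was at 7.16, 7.06, 7.12, 7.16 and 7.04 on cannabis arrays, against 6.94, 7.02, 7.08, 6.96 and 6.94 on vehicle arrays. It was dim, above background on 5 cannabis and 2 vehicle arrays, and differed by 0.12 ± 0.04. The growth factor receptor Pdgfra differed by 0.22 ± 0.12 and the secreted factor Bmp4 by 0.17 ± 0.11.

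The matrix of perineuronal nets, which wrap mature interneurons, had 3 of 8 genes at an unadjusted p under 0.05 in the higher direction, beside 1.41% of all genes. The link protein Hapln1 was at 7.61, 7.76, 7.66, 7.80 and 7.59 on cannabis arrays, against 7.45, 7.42, 7.63, 7.51 and 7.46 on vehicle arrays. All but 1 vehicle array lay below all cannabis arrays. Ncan, the proteoglycan neurocan, was at 9.14, 9.85, 9.71, 9.68 and 9.35 on cannabis arrays, against 9.28, 9.56, 9.30, 9.11 and 8.93 on vehicle arrays. The groups overlapped. It differed by 0.31 ± 0.12, and the related proteoglycan Bcan by 0.19 ± 0.08. Hapln4, the link protein of inhibitory synapses, lay on the other side, at -0.38 ± 0.16. It was the 1 of 8 with an unadjusted p under 0.05 in the lower direction, beside 2.04% of all genes. In all 6 of 8 were higher, with a median of 0.15 that was 0.13 within arrays 1 to 3, 0.18 within arrays 4 and 5, and 0.08 without cannabis array 4. Precursors and astrocytes make several of these proteins too, and their part was not tested.

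**Figure D5:**
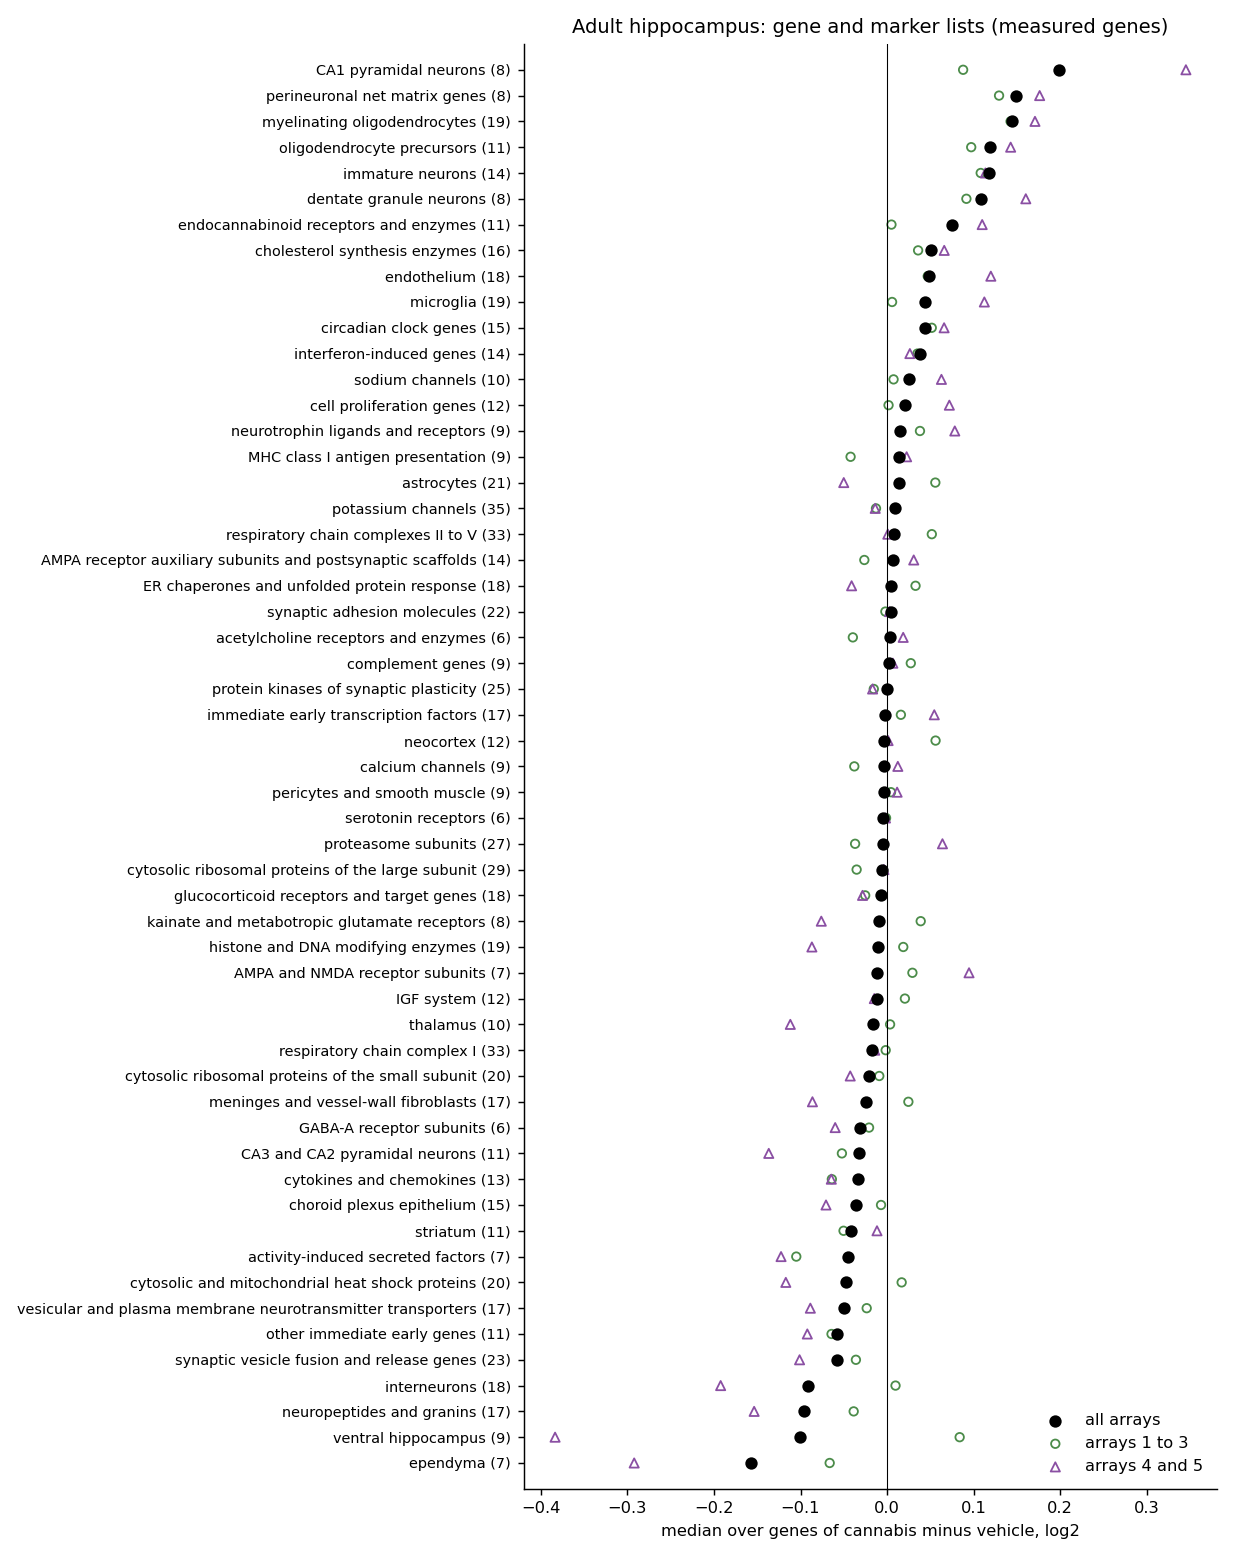
Median difference between the adult groups (cannabis minus vehicle, log2, x axis) over the measured genes of each list with 6 or more of them, their number in brackets, over all arrays (filled circles), within arrays 1 to 3 (open circles) and within arrays 4 and 5 (triangles). CA1 markers (0.20) are at the top and ependyma markers (-0.16) at the bottom, and the sets lie on opposite sides of 0 for ventral hippocampus (0.08 and -0.38).

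Among glia and vessels the shifts were smaller. Astrocyte markers had a median of 0.01 over 21 genes, with Gfap, the intermediate filament of astrocytes, at -0.28 ± 0.14. Microglial markers were higher in 13 of 19, with a median of 0.04 (Trem2 -0.15 ± 0.08, Siglech 0.12 ± 0.09). Endothelial markers were higher in 13 of 18, with a median of 0.05. Sox18 (0.17 ± 0.07) and the transporter Slco1a4 (0.16 ± 0.07) were the 2 of 18 with an unadjusted p under 0.05, beside 3.45% of all genes.

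Tissues that border the hippocampus were measured as well. Markers of the ependyma, the ciliated lining of the ventricles, were lower in 6 of 7 genes, with a median of -0.16, and those of choroid plexus epithelium in 12 of 15, with a median of -0.04. Markers of meninges and vessel-wall fibroblasts were lower in 14 of 17, with a median of -0.02, but higher in 10 of 17 within arrays 1 to 3, with a median of 0.02. Ptgds, a prostaglandin D synthase of the meninges, differed by -0.54 ± 0.30 (-0.16 and -1.10 within the sets). Over all arrays 3 of the 17 were higher, the furthest of them Igf2 at 0.35 ± 0.22. Red blood cell genes were higher in 4 of 4, with a median of 0.15 that was 0.04 without cannabis array 4. Hba-a1, the alpha chain of haemoglobin, lay between 10.69 and 11.68 on cannabis arrays and between 10.51 and 11.37 on vehicle arrays.

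Immune genes showed few differences beside Il33. Tap2, the peptide transporter of MHC class I loading, was at 7.46, 7.48, 7.44, 7.40 and 7.50 on cannabis arrays, against 7.62, 7.68, 7.73, 7.53 and 7.68 on vehicle arrays. The groups did not overlap and the difference was -0.19 ± 0.06. The MHC class I genes as a list, Tap2 included, lay around 0 (6 of 9 higher, median 0.01), as did 14 interferon-induced genes (10 higher, median 0.04) and 9 complement genes (5 higher, median 0.002, with C4b at -0.22 ± 0.11). Of 13 cytokine and chemokine genes 10 were lower, with a median of -0.03, among them Tgfb3 at -0.15 ± 0.07.

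Stress and clock genes lay near 0 too. Of 18 glucocorticoid receptors and targets 8 were above vehicle, with a median of -0.007. Zbtb16 differed by -0.16 ± 0.06, and Plin4, a lipid-droplet protein, by -0.56 ± 0.27 with arrays between 6.93 and 8.40 on cannabis and 7.41 and 8.77 on vehicle. Clock genes were higher in 12 of 15, with a median of 0.04. Heat shock genes were lower in 13 of 20, with a median of -0.05 (Hspa4l -0.17 ± 0.08). Within arrays 1 to 3 12 of the 20 were higher, with a median of 0.02, and without vehicle array 5 the median was 0.03. The 18 genes of the endoplasmic reticulum stress response had a median of 0.004.

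Further lists of neuronal and metabolic genes were likewise spread on both sides of 0. Of 22 synaptic adhesion genes 12 were above vehicle, with a median of 0.004. Cntnap4, a neurexin relative of interneurons, was the 1 of 22 with an unadjusted p under 0.05 (-0.28 ± 0.12), beside 3.45% of all genes. Protein kinases of synaptic plasticity were above vehicle in 12 of 25 and histone and DNA modifying enzymes in 9 of 19, where the histone deacetylase Hdac4 differed by -0.20 ± 0.09 and the acetyltransferase Ep300 by -0.29 ± 0.14. Enzymes of cholesterol synthesis, which myelin and synapses need, were higher in 11 of 16, with a median of 0.05, and the demethylase Cyp51 differed by 0.30 ± 0.13.

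Genes that every cell uses had medians near 0. Their mean levels varied little between arrays, from 11.11 to 11.22 for the large ribosomal subunit, against 9.39 to 10.17 for myelin genes. They therefore do not give the scale of a marker-list median. Cytosolic ribosomal proteins had medians of -0.02 (small subunit, 20 genes) and -0.006 (large subunit, 29 genes), respiratory chain genes -0.02 (complex I, 33 genes) and 0.008 (complexes II to V, 33 genes), and proteasome subunits -0.005 (27 genes). Single members still differed by more: Rps25 by -0.36 ± 0.14, Rpl27 by -0.16 ± 0.06, and the proteasome ATPases Psmc1 by 0.21 ± 0.08 and Psmc5 by 0.19 ± 0.08.

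The last comparison asked whether the cannabis effect in adults differed from that at P28. Age, time since the last dose, behavioural testing and phencyclidine differ together between the ages and cannot be told apart. By limma 0 of 18249 probes passed for the difference of the effects (0.0%, lowest adjusted p 1.0), and 531 had an unadjusted p under 0.05 (2.91%). Over genes the adult and P28 differences correlated at -0.135, across genes and without shared arrays.

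Egr1 was higher with cannabis at both ages, by 0.35 ± 0.07 in adults and 0.27 ± 0.08 at P28, and the difference of these effects was 0.08 ± 0.10. For 2900060B14Rik the adult difference was -0.71 ± 0.15 and the P28 difference 0.20 ± 0.17. The difference of the effects was -0.90 ± 0.23. The smallest p for a difference of effects belonged to Slc38a2 (-0.68 ± 0.16, adult minus P28), Ifitm1, an interferon-induced membrane protein (0.40 ± 0.09), B2m, the light chain of MHC class I (0.47 ± 0.10), Rfesd (0.36 ± 0.08) and Coq5, of coenzyme Q synthesis (-0.29 ± 0.07). In adults B2m was at 10.37, 10.64, 10.52, 10.36 and 10.46 on cannabis arrays, against 10.27, 10.46, 10.30, 10.36 and 10.41 on vehicle arrays. The adult groups overlapped, and the adult difference was 0.11 ± 0.07.

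Of the 20 marker lists 8 had a median of the same sign at both ages and 12 of the other sign. Interneuron markers kept their sign, at -0.09 in adults and -0.05 at P28, as did ventral markers, at -0.10 and -0.07. Among those with the other sign, the median was 0.14 in adults and -0.06 at P28 for myelin genes, 0.12 and -0.09 for oligodendrocyte precursors, 0.12 and -0.08 for immature neurons, and -0.04 and 0.48 for choroid plexus epithelium. These are descriptions of the lists and no test was made of their difference.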

How the data were processed

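Hippocampal RNA of 18 samples was labelled as biotinylated cRNA and hybridised to Illumina mouse bead arrays. The authors deposited a table of log2 intensities, 1 value per probe and sample, and these were used. Every column has the same median (6.86) and distribution, so the authors had normalized the arrays to each other, by a method not given in the sources used here. Partek is named per the submitters' processing notes, without a version. The deposited raw signals and detection p name their 72 per-sample columns after places on a slide, which no label ties to a sample, and were not used.

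Probes had to exceed 6.98 in at least 4 arrays to be tested, a level set 3 SD (0.0702) over the mode of the dim probes (6.77). Symbols came from the platform annotation, 10 of them updated through RefSeq; 1 symbol was found for 34885 probes, several for 18 and none for 10378. limma 3.58.1 (R 4.3.3) fitted a mean for each of 4 groups over 18 arrays (14 residual and 3.93 prior degrees of freedom), with moderated 2-sided tests, adjusted over all tested probes by Benjamini-Hochberg. The fit was tested on simulated data.

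Lists were described on 1 probe per gene, the brightest over all arrays. Named genes were the 12 higher and 12 lower with the smallest p, the 5 higher and 5 lower with the largest difference at an unadjusted p under 0.05, up to 4 members of each list with the smallest p, 7 endocannabinoid genes, and the 5 with the smallest p between ages; Dcn, Ttr and the unnamed probe are outside this rule. The comparison, the lists and the alternatives were chosen with earlier results of these data known. Same-numbered adult arrays correlated in their deviations at -0.151, 0.330, 0.163, 0.498 and 0.430, so the numbers were not taken as pairs.

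Alternatives were no filter, background exceeded on all 10 adult arrays, a trend and robust prior, array weights, adult arrays only, blocks for the replicate number, for arrays 4 and 5 and for 3 sets of 6 in the order of deposit, each set alone, normexp correction (offset 16), the mean of a gene's probes, and leaving out each adult array.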

Additional observations from a re-analysis of the deposited data

Results flagged for a closer look

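For the genes described above, 1 array stood apart from the other 4 of its group in 11 of 220 groups of 5 arrays (5.0%), by the ratio of its gap to the whole range of the group. Chance gives about 1 in 20, so the number of such values is close to it. On cannabis arrays, array 1 was high for Kcnq5 (7.964, group median 7.485) and Coq5 (10.0, median 9.899) and low for Lefty1 (8.166, median 8.725). Array 4 was low for Smim20 (7.04, median 7.231) and Syn2 (10.9, median 11.05). On vehicle arrays, array 1 was low for Mobp (9.697, median 10.34) and high for the CA1 marker Fibcd1 (12.04, median 11.79). Array 2 was high for Daglb (9.701, median 9.272), array 3 was high for Gria1 (12.78, median 12.68) and low for Ifitm1 (7.41, median 7.527), and array 4 was high for Tnrc6a (8.968, median 8.785). The difference of Mobp was 0.42 to 0.75 when 1 array was left out, and that of Smim20 kept its sign in each such fit.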

How the results depend on the processing

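Across the alternatives, the count of probes past the threshold in adults stayed at 0 except in arrays 4 and 5 alone, where 1 probe passed (Dcn, -1.93, adjusted p = 0.00285), and with the replicate block on the adult arrays alone, where 2 passed (2900060B14Rik, -0.71, adjusted p = 0.0333, and the unnamed probe ILMN_1215076, -1.66, adjusted p = 0.00787). The count at an unadjusted p under 0.05, 647 in the fit reported, was 1084 with the 3 sets of 6 as a block, 1794 with no filter on dim probes, 1054 in arrays 4 and 5 alone, 979 with arrays 4 and 5 as a block, and 475 to 1042 when 1 adult array was left out, highest without cannabis array 3. For the difference between ages 12 probes passed in arrays 4 and 5 alone, where P28 has 1 array a group that is assumed to vary like the adult groups, against 0 otherwise; Ttr of the choroid plexus was the furthest (-6.92). The causes were not tested. Of the 24 genes with the smallest p, 0 changed sign under any alternative. They were chosen for their p in these same arrays, so a kept sign is mostly fixed by that choice. Over the 255 named probes, 69 of 5100 alternative values had the other sign, in 41 probes. Of the 60 lists, 35 had a median with the other sign under at least 1 alternative (163 of 1320 medians). Signal over background limits Cnr1, Igfbpl1, Cspg4 and other dim probes, whose differences are the most compressed, and intensities carry no depth.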
